A study of Mus musculus with 14 samples.

Results

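The genes described here are 36 mouse genes of the interferon response and of antigen presentation by MHC class I molecules. They were chosen by symbol, and all 36 were found among the 55228 genes counted in the epithelium of the embryonic bladder and urethra. By role, 26 belong to the interferon response and 10 to the MHC class I pathway.

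Interferons are secreted signals that cells release when they sense viral RNA or DNA, and they act through receptors and the kinases Jak1 and Tyk2 on STAT and IRF transcription factors. Complexes that hold STAT2 and IRF9 bind a promoter element called the interferon-stimulated response element (ISRE), and a further element of STAT factors is the gamma-activated sequence (GAS). The induced genes include RNA sensors, proteins that block viral entry or replication, and the parts of the class I pathway, in which immunoproteasome subunits cut peptides, TAP1 and TAP2 carry them into the endoplasmic reticulum, and tapasin loads them onto a heavy chain paired with beta-2 microglobulin. Many of these genes are also expressed at a low level without infection, and nearly all nucleated cells of adults carry class I molecules.

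All samples were epithelium of wild-type, untreated CD-1 mice, an outbred strain, taken from female embryos that were pooled by litter. Bladder and urethral epithelium were each sampled at embryonic day 14.5 (E14.5, 4 libraries a tissue) and shortly before birth, at E18.5 (3 libraries a tissue), after digestion in trypsin and separation from the mesenchyme by hand. The series sought genes of either compartment. Every litter gave both tissues, the labels do not tie a replicate number to a litter, and pooled embryos do not show differences between single animals.

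Library totals ran from 21101269 to 36810672 counts, and 21966 to 24258 genes had at least 1 count. The 7 pan-epithelial marker genes, such as Epcam, were present in every library, with a summed level of 1657 to 4696 CPM (counts scaled to library size). Mesenchyme genes were present too: the 15 markers summed to 991.8 to 4439 CPM in E14.5 bladder, 2333 to 6498 in E14.5 urethra, 4736 to 5729 in E18.5 urethra and 20400 to 30420 in E18.5 bladder. The 14 leukocyte markers summed to 387 to 514.3 CPM in E18.5 bladder and to 74.19 to 171.5 in the other 3 groups, and the 10 endothelial markers to 318.5 to 449.2 CPM and 31.77 to 237.8 CPM. The 10 smooth muscle markers summed to 5028 to 12760 CPM in E18.5 bladder, 1040 to 2353 in E18.5 urethra and 266.7 to 680.9 in the E14.5 groups. None of the markers in these 5 lists was at 0 in a whole group, and in such bulk libraries fewer cells of a type and less RNA per cell cannot be told apart. In the urethra at E14.5, replicate 1 had a pan-epithelial sum of 3656 CPM against 1657 to 2218 in the other 3 libraries. The 2 stages were deposited as separate tables, so stage and table cannot be told apart.

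**Figure D1:**
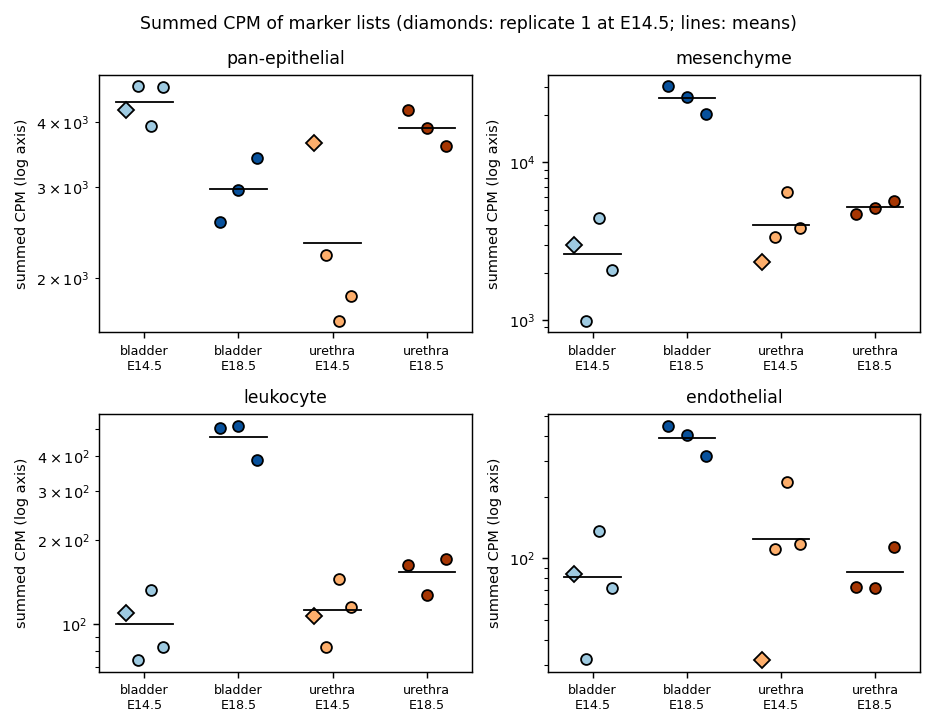
Summed CPM (log axis) of 4 marker lists in each of the 14 libraries, by tissue and stage; points are libraries, diamonds are replicate 1 at E14.5 and lines are group means. The 3 bladder libraries at E18.5 lie above all other libraries for mesenchyme (20400 to 30420 CPM), leukocyte (387 to 514.3) and endothelial genes (318.5 to 449.2).

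Because most of these genes are known targets of STAT and IRF factors, their promoters were searched for both elements. RefSeq promoters (GRCm38.p6, 250 bases before to 50 after the start site) were found for 27 of the 36 genes. Dhx58, Oas2, Mx1, Usp18, Ifi27, Rtp4, Ly6e, Nlrc5 and Tap2 were without an entry. The ISRE core, GAAA, any 2 bases and GAAA again, on either strand, was found in 11 of the 27 promoters, or 40.7%, against 3.99% of the 27025 genes in the RefSeq table. The GAS core, TTC, any 3 bases and GAA, was found in 6 of 27, or 22.2%, against 9.55% of all genes. These 6 were Irf1, Ifit2, Bst2, Ifitm3, Ifi35 and Psmb8, and in Bst2 and Ifitm3 a GAS match overlapped an ISRE match. A match of letters is a description and not a binding site.

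The following stretches are from the 6 genes whose ISRE matches lay before the start site and whose change between stages passed the test for a difference between the tissues. They are written 5′ to 3′ on the gene's own strand, with the ISRE matches in capitals (the core or its reverse complement).
Isg15, chr4:156200850-156200921, minus strand: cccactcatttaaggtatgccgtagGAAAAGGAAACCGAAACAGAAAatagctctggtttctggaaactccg
Bst2, chr8:71537562-71537627, minus strand: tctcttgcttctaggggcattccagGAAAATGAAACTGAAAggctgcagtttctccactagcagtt
Ifit1, chr19:34640760-34640838, plus strand: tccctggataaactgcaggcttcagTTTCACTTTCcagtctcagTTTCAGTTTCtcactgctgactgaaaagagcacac
Rsad2, chr12:26456538-26456597, minus strand: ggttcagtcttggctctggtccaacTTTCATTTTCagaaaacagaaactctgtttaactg
Ifitm2, chr7:140955973-140956032, minus strand: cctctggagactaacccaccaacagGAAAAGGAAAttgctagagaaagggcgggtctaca
B2m, chr2:122147523-122147582, plus strand: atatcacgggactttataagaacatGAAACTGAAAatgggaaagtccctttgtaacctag
Isg15 held 3 matches that overlap one another, Bst2 held 2 that overlap, Ifit1 held 2 apart from each other, and Rsad2, Ifitm2 and B2m held 1 each. The other 5 genes with a match were Stat2, Ifih1, Ddx58, Ifit3 and Ifitm3, of which Ifih1, Ddx58 and Ifitm3 had theirs after the start site.

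The genes are scattered over the genome with 3 groups of neighbours (GRCm38, as deposited). On chromosome 17, 7 of the 10 class I genes (Tapbp, H2-K1, Psmb9, Tap1, Psmb8, Tap2 and H2-D1) lie in 1351.6 kb of the major histocompatibility complex, from base 33915899 to 35267499. Ifitm2, Ifitm1, Ifitm3 and Irf7 lie within 311.6 kb of chromosome 7, and Ifit2, Ifit3 and Ifit1 within 99.3 kb of chromosome 19. Tap1 and Psmb9 are transcribed in opposite directions and share 212 bases, so where counting ignored strand their reads would not be separable there. The same holds for Irf7, with 1155 counts over all libraries, and Phrf1, with 48929, which share 45 bases. CD-1 mice differ from the reference strain at class I loci, and Ifitm1, Ifitm2, Ifitm3, Ifit3 and the H2 chains have close copies, so their levels depend on how reads were placed; this was not tested.

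At E14.5 most of the genes were at low levels. The mean was under 1 CPM for 12 of 36 genes in bladder and 10 of 36 in urethra, and over 100 CPM for 0 of 36 in both tissues. At E18.5 the mean was under 1 CPM for 2 of 36 in bladder and 5 of 36 in urethra, and over 100 CPM for 4 of 36 in each. The median of the 36 means was 2.50 CPM in E14.5 bladder and 17.0 in E18.5 bladder, and 3.23 and 13.1 CPM in urethra.

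Compared per kilobase of gene model, the same few genes led each group. Ifitm2, which with Ifitm1 and Ifitm3 encodes membrane proteins that hinder viral fusion, led E14.5 bladder with 46.5 ± 3.67 CPM per kb (SD, n = 4), ahead of B2m, the light chain of class I molecules, with 43.4 ± 4.12; these 2 levels lie within their spread. H2-D1, a class I heavy chain, was next at 32.7 ± 18.8 CPM per kb. In E14.5 urethra the first was Ifitm3 with 112 ± 37.01 CPM per kb (SD, n = 4), and Ifitm3 was again first in E18.5 bladder (174 ± 33.9, SD, n = 3) and E18.5 urethra (251 ± 20.9, SD, n = 3). B2m was second in E18.5 bladder with 134 ± 9.56 CPM per kb, and Ifitm2 second in E18.5 urethra with 70.9 ± 1.38.

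**Figure D2:**
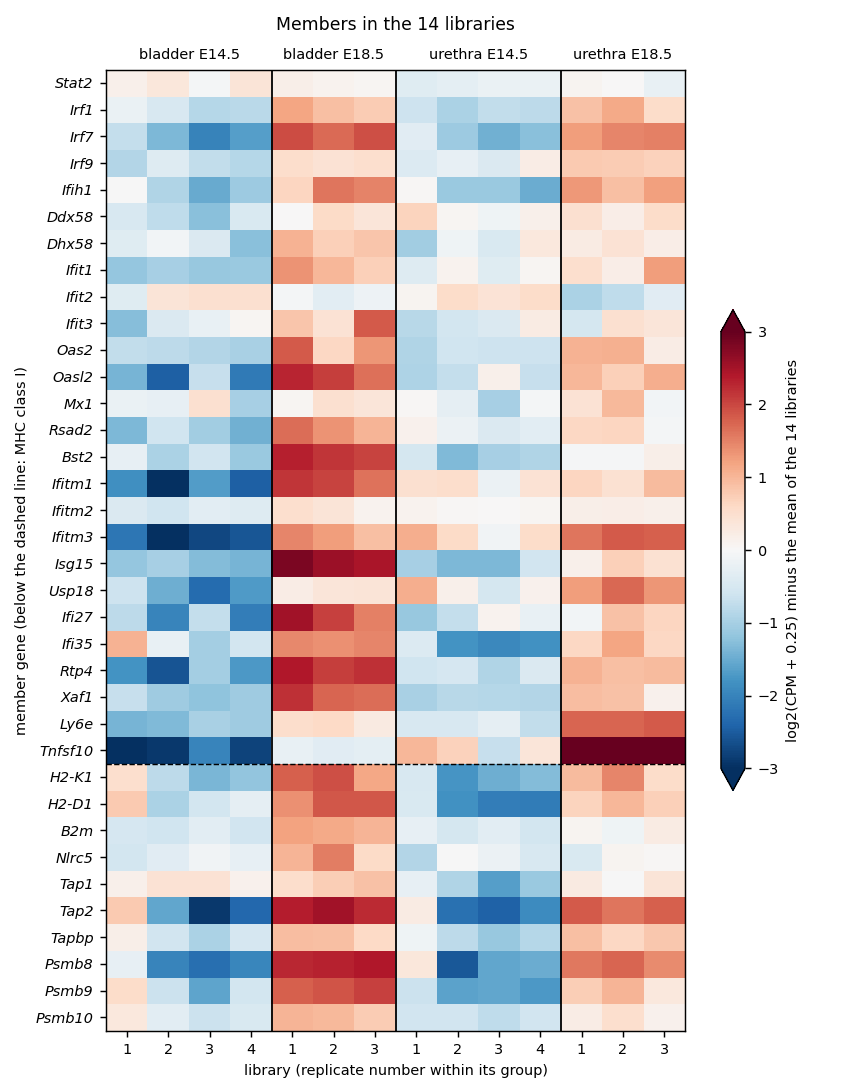
Each of the 36 genes (rows) in each of the 14 libraries (columns) as log2(CPM + 0.25) minus that gene's mean over the 14 libraries; red is above and blue below the mean, and colours end at 3 in either direction. The 3 bladder libraries at E18.5 are above the mean for nearly all genes, Tnfsf10 is highest in the 3 urethral libraries at E18.5, and Ifit2 runs the other way.

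From E14.5 to E18.5 in the bladder, genes of every role rose. Of the 34 genes with enough counts to test, 31 were higher at E18.5 and 0 lower, where a gene was called at an adjusted p under 0.05 over all genes tested. Over all 18286 genes 40.3% were called, 19.9% of them higher and 20.4% lower as shares of the genes tested. The median log2 fold change (E18.5 over E14.5) of the 34 was 2.32, against 0 over all genes. In 32 of the 34 the lowest E18.5 library lay above the highest E14.5 library, which held for 21.4% of all genes. Markers of other cell types rose in the same libraries: 12 of 14 leukocyte genes (median log2 fold change 3.12), 10 of 10 endothelial genes (2.24), 12 of 15 mesenchyme genes (2.80), 10 of 10 smooth muscle genes (5.19) and 4 of 9 erythroid genes. Of the erythroid genes 1 fell, and of the 7 pan-epithelial genes 3. Ptprc, Pecam1 and Col1a1, a marker each of leukocytes, endothelium and mesenchyme, had log2 fold changes of 3.57, 2.91 and 3.31, and Epcam of -0.66.

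Isg15, the ubiquitin-like protein that is attached to other proteins after interferon, changed most. Its level was 0.125, 0.173, 0.0903 and 0.0687 CPM in the 4 bladder libraries at E14.5 and 5.71, 4.72 and 4.37 CPM in the 3 at E18.5. The stages did not overlap, and the log2 fold change was 5.38 ± 0.43 (SE; adjusted p = 4.77e-06). Rtp4, an interferon-induced chaperone for membrane receptors, went from 0 to 0.497 to 6.14 to 7.73 CPM (5.03 ± 0.60, adjusted p = 5.29e-05).

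Among the antiviral effectors, 9 of the 10 tested rose in the bladder. Ifitm1 was at 2.23, 0.749, 2.53 and 1.38 CPM at E14.5 and at 39.2, 35.8 and 26.9 at E18.5, a log2 change of 4.35 ± 0.35 (adjusted p = 4.73e-06). Ifitm3 stood at 11, 4.09, 7.41 and 8.28 CPM and then at 139.7, 120.4 and 93.8 (3.98 ± 0.32, adjusted p = 4.21e-06). Ifitm2, high at both stages, rose by 0.81 on the log2 scale. Bst2, known as tetherin because it holds budding virus at the cell surface, went from 4.70, 2.77, 3.66 and 2.48 CPM to 29.1, 25.8 and 23.7 (2.98 ± 0.24, adjusted p = 5.36e-06). All 3 E18.5 libraries were above all 4 E14.5 libraries for each of these genes.

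The oligoadenylate synthetase Oas2 and its relative Oasl2 rose by 3.70 and 4.08, and Rsad2 (viperin), which makes a chain-terminating nucleotide, by 3.02. The RNA-binding proteins Ifit1 and Ifit3 rose by 3.36 and 2.39, although Ifit1 reached only 1.13 to 1.89 CPM and Ifit3 0.562 to 1.92. Ifit2 was the exception among the effectors. It stood at 15.3, 25.98, 27.8 and 27.4 CPM at E14.5, well above Ifit1 and Ifit3, and at 18.8, 15.6 and 17.7 at E18.5, a change of -0.44 ± 0.22 that was not called (adjusted p = 0.125). Replicate 1 at E14.5 was the low one, and with replicate 1 of both tissues left out the change was -0.61 (adjusted p = 0.00785). With the mean level of the mesenchyme genes as a covariate it was -0.55 and not called (adjusted p = 0.519). Scaled on the pan-epithelial genes it had the opposite sign (0.12, adjusted p = 0.804). Mx1, a GTPase that blocks several viruses and is disrupted in many laboratory strains, was too low to test between stages, with at most 0.741 CPM in any library.

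Of the transcription factors, Irf7, the main amplifier of type I interferon, rose most in the bladder. It was at 1.03, 0.576, 0.271 and 0.412 CPM at E14.5 and 7.91, 6.52 and 7.81 at E18.5 (3.70 ± 0.40, adjusted p = 2.95e-05). Irf1, which also drives class I genes, rose by 1.58 and Irf9, the DNA-binding partner of STAT2, by 1.24. Stat2 did not pass the test: it was at 28 to 38.5 CPM at E14.5 and at 30.6 to 33.2 at E18.5 (-0.06 ± 0.11, adjusted p = 0.691). The RNA sensors Ifih1 (MDA5), Ddx58 (RIG-I) and Dhx58 (LGP2) rose by 2.2, 1.07 and 1.53. Usp18, which removes ISG15 and restrains the type I receptor, rose by 1.86.

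The other interferon-induced genes, Ifi27, Ifi35, Xaf1, Ly6e and Tnfsf10, all rose in the bladder. Their log2 fold changes were 3.59 ± 0.48 for Ifi27, a small hydrophobic protein of internal membranes, 3.37 ± 0.29 for Xaf1, an antagonist of the apoptosis inhibitor XIAP, and 1.45 ± 0.46 for Ifi35. Tnfsf10 and Ly6e changed by 3.34 ± 0.51 and 1.70 ± 0.13. The calls of 2 genes in the bladder rested on single libraries: Ifi35 lost its call without bladder replicate 2 or 4 at E14.5 or 1 or 3 at E18.5 (1.30 to 1.41, adjusted p up to 0.0697), and Ifit3 without replicate 2 at E14.5 or 3 at E18.5 (1.74 to 2.37, adjusted p up to 0.136).

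In the class I pathway 8 of the 9 genes tested rose in the bladder. B2m was at 36.9, 34.5, 42.5 and 35.5 CPM at E14.5 and 123, 117 and 106 at E18.5, with no overlap (1.66 ± 0.12, adjusted p = 2.37e-06). The heavy chain H2-K1 went from 21.4, 8.64, 5.69 and 6.46 to 53.2, 58.1 and 34.2 CPM (2.24 ± 0.44), and H2-D1 from 155, 46.3, 61.7 and 74.4 to 233, 327 and 327 (1.84 ± 0.43). Psmb8, an immunoproteasome subunit, rose by 3.98 ± 0.71 and the transporter Tap2 by 3.24 ± 0.86. Tap1, its partner in the transporter, was already at 37.05 to 45.6 CPM at E14.5 and was not called (0.46 ± 0.24, adjusted p = 0.149).

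With the mean level of the mesenchyme genes as a covariate in the same fit, 11 of the 34 remained called in the bladder, all higher: B2m, Bst2, Ddx58, Ifitm1, Ifitm3, Irf7, Irf9, Isg15, Ly6e, Rsad2 and Xaf1. The median over the 34 was then 2.38, but single genes moved far: Ifi27 to 1.01 (adjusted p = 0.309), Oasl2 to 1.30 (adjusted p = 0.197), Rtp4 to 3.09 (adjusted p = 0.121) and Ifitm2 to 0.51 (adjusted p = 0.18). That fit called 593 of all 18286 genes where the fit without the covariate called 7365. The part of leukocyte, endothelial and smooth muscle RNA in the rise was not tested.

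From E14.5 to E18.5 in the urethra, 25 of the 34 genes tested rose and 1 fell. Over all 18286 genes 33.0% were called, 17.3% of those tested higher and 15.7% lower. The median log2 fold change of the 34 was 1.29, against 0 over all genes. Of the marker lists, smooth muscle moved most, with 6 of 10 genes higher and a median of 1.46, and 5 of 7 pan-epithelial genes were higher. Of 14 leukocyte genes 1 was higher, 0 of 10 endothelial genes were called, 1 of 15 mesenchyme genes was higher and 2 were lower, and 3 of 9 erythroid genes were lower. Ptprc, Pecam1, Col1a1 and Epcam had log2 fold changes of 0.50, -0.51, 0.71 and 0.57. The part of smooth muscle RNA was not tested. With the mesenchyme covariate 26 rose and 1 fell, in a fit that called 6766 of all 18286 genes (3550 higher and 3216 lower). In 26 of the 34 all E18.5 libraries lay above all E14.5 libraries, as in 20.0% of all genes.

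The class I pathway rose as a whole in the urethra: all 9 genes tested were higher, with a median log2 fold change of 2.22. Tap2 went from 6.72, 0.984, 0.843 and 1.33 CPM at E14.5 to 20.8, 17.5 and 19.9 at E18.5 (2.96 ± 0.87, adjusted p = 0.0196). Psmb8 went from 4.00, 0.328, 0.884 and 0.942 to 9.86, 11 and 8.69 (2.67 ± 0.68, adjusted p = 0.01). The stages did not overlap for either gene, although replicate 1 at E14.5 stood well above the other 3 libraries for both. The Tap2 call was lost without urethral replicate 2, 3 or 4 at E14.5 (2.69 to 2.75, adjusted p up to 0.0606).

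H2-D1 was at 66.01, 25.5, 21.1 and 20.9 CPM in E14.5 urethra and at 144, 179 and 148 at E18.5 (2.22 ± 0.43), and H2-K1 at 10.6, 4.26, 5.30 and 6.01 and then 29.3, 41.9 and 22.1 (2.23 ± 0.44). Tap1, not called in the bladder, rose by 1.11 ± 0.24 (adjusted p = 0.00454), from 10.6 to 28.6 to 33.9 to 44.7 CPM. The tapasin gene Tapbp rose by 1.44, and the other immunoproteasome subunits Psmb9 and Psmb10 by 2.36 and 0.92. B2m rose least, by 0.46 ± 0.12 (adjusted p = 0.00982), and scaled on the pan-epithelial genes its change was -0.28 (adjusted p = 0.332).

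Of the 25 interferon genes tested in the urethra, 16 rose. Tnfsf10, which encodes the death ligand TRAIL, changed most, from 6.02, 4.84, 1.69 and 3.77 CPM at E14.5 to 32.03, 38.3 and 35.6 at E18.5 (3.10 ± 0.42, adjusted p = 0.000302). Ly6e, a membrane protein that restricts coronaviruses, went from 51.02, 51, 58.7 and 42.4 to 240.3, 239 and 257 CPM (2.26 ± 0.13, adjusted p = 4.18e-06). Both genes had stages far apart.

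Irf7 rose in the urethra by 2.68 ± 0.39, Oas2 by 2.53 ± 0.46, Isg15 by 2.43 ± 0.43 and Ifi35 by 2.23 ± 0.47. Isg15 stayed low there, at 0.692, 1.13 and 0.900 CPM at E18.5. Stat2, Ddx58, Dhx58, Ifit3, Rsad2, Ifitm1, Ifitm2 and Ifi27 were not called, with log2 fold changes from 0.11 for Ifitm2 to 1.00 for Ifi27. Ifit2 fell, from 20.9, 28.9, 26.3 and 29.01 CPM to 9.98, 11.4 and 15.5 (-1.11 ± 0.22, adjusted p = 0.00265). Calls that rested on single libraries were those of Ifit1 (1.11), lost without urethral replicate 1 or 3 at E14.5 or 3 at E18.5 (0.68 to 1.03, adjusted p up to 0.187), and of Oasl2 (1.56), lost without urethral replicate 2 or 4 at E14.5 or 1 or 3 at E18.5 (1.49 to 1.57, adjusted p up to 0.065). Usp18 (1.13) lost its call without any 1 of 10 of the 14 libraries, all but bladder replicates 1, 2 and 3 and urethral replicate 1 at E14.5 (0.95 to 1.25, adjusted p up to 0.136).

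Scaling on the 7 pan-epithelial genes instead of all genes put the median of all genes between stages at -0.76 in the urethra and 0.54 in the bladder, where it had been 0. It put the median between tissues at -0.99 for the earlier stage and 0.36 for the later, from -0.03 for both, and that of the difference between tissues in the stage change at 1.29, from -0.01. On that scale 16 genes rose and 2 fell in the urethra (Ifit2 and Ifitm2), and 32 rose in the bladder. Of all 18286 genes, 1055 rose and 8921 fell in the urethra on that scale, and 6001 rose and 303 fell in the bladder.

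The stage change itself differed between the tissues for 13 of the 34 genes, by the interaction term of a fit to all 14 libraries. It was larger in the bladder for 12 and smaller for 1, beside 22.9% of all genes called, 12.2% in the first direction and 10.7% in the second. Ifitm1 differed most, by 4.00 ± 0.47 on the log2 scale (bladder change minus urethra change, adjusted p = 0.000349), since it stood at 12, 12.4, 7.63 and 11.7 CPM in the urethra at E14.5 and 13.5, 11.9 and 16.9 at E18.5. Rtp4 differed by 3.20 ± 0.80, Isg15 by 2.95 ± 0.63, Ifitm3 by 2.83 ± 0.42 and Ifi27 by 2.60 ± 0.66. The remaining genes with a larger bladder change were Oasl2, Rsad2, Ifit1, Bst2, Xaf1, B2m and Ifitm2, by 2.52, 2.30, 2.26, 1.98, 1.49, 1.20 and 0.70.

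Ly6e was the gene with the smaller change in the bladder (-0.56 ± 0.18, adjusted p = 0.0454), a call that was lost without any 1 of 9 of the 14 libraries (-0.62 to -0.46, adjusted p up to 0.092) and that had the opposite sign on the pan-epithelial scale (0.77). The 5 libraries whose omission kept it were bladder replicates 1 and 2 and urethral replicates 1 and 3 at E14.5 and bladder replicate 2 at E18.5. Without bladder replicate 1 at E18.5, Oasl2 and Xaf1 were not called either (2.33 and 1.26, adjusted p = 0.0559 and 0.0633), and without urethral replicate 1 at E14.5 Tap1 was (-0.96, adjusted p = 0.0115). In the class I pathway B2m was the only 1 of 9 genes with a called difference; the others lay between -0.65 for Tap1 and 1.31 for Psmb8, with adjusted p from 0.196 for Tap1 to 0.999 for H2-K1. Of the 11 genes with an ISRE match 7 had a larger change in the bladder, and of the 16 other genes with a RefSeq promoter 3 had. In the stage change itself, 10 of the 11 and 14 of the 16 rose in the bladder. In the urethra 6 of the 11 and 14 of the 16 rose, and 1 of the 16 fell. At E18.5, 4 of the 11 and 9 of the 16 were higher in the bladder, and 1 of each was lower. At E14.5, 4 of 8 tested and 3 of 16 were lower, and 1 of each was higher. A link between the matches and these changes was not tested. With the mesenchyme covariate 0 of the 34 interaction terms were called by edgeR, and 61 of all 18286 genes were. In that fit the median of the 34 was 0.72, against 0.80 without the covariate, and Ifi27 and Oasl2 had the opposite sign (-0.11 and -0.41), Rtp4 was at 1.24 and Ifitm1 at 2.77. Leukocyte markers had the same interaction in 11 of 14 genes, endothelial markers in 8 of 10, mesenchyme markers in 14 of 15 and smooth muscle markers in 9 of 10, and pan-epithelial markers had the opposite one in 5 of 7.

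**Figure D3:**
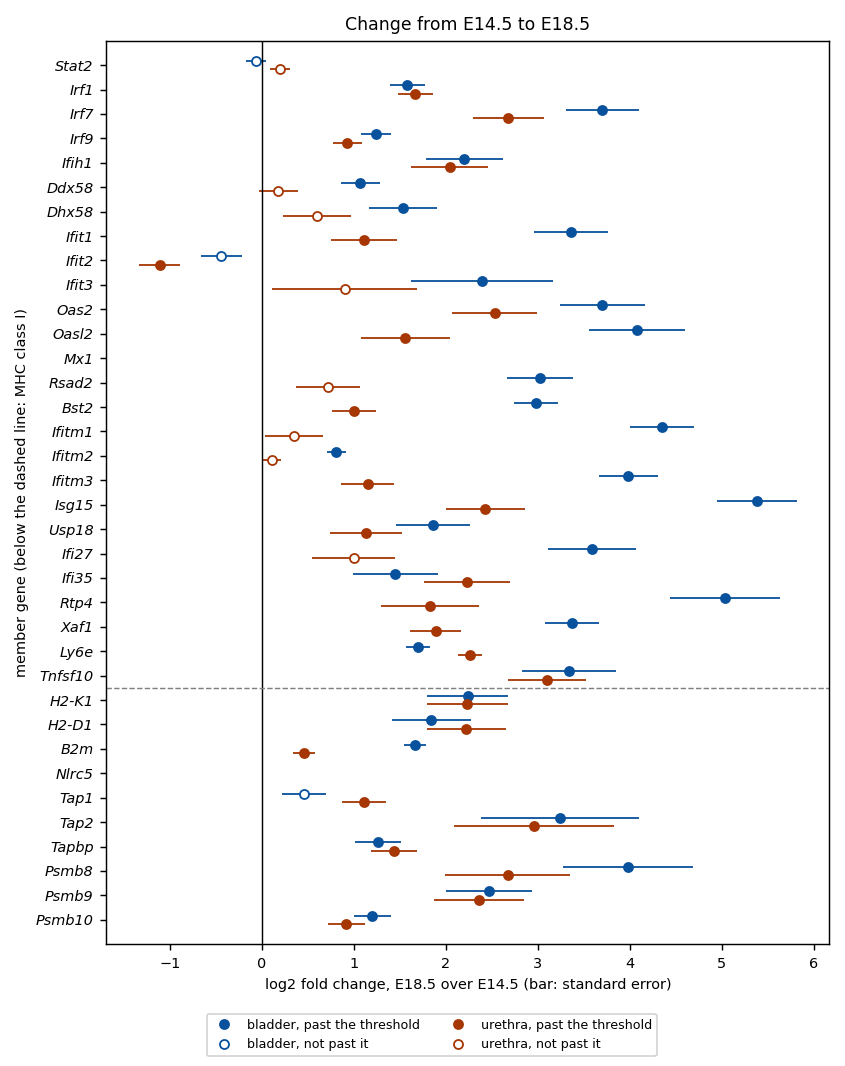
Log2 fold change from E14.5 to E18.5 of each gene in bladder (blue) and urethra (brown), with bars for the standard error; filled points passed an adjusted p of 0.05 and open points did not. Isg15 lies farthest right for the bladder (5.38), Tnfsf10 (3.10) and Tap2 (2.96) for the urethra, the error bars of the 2 tissues are far apart for B2m (1.66 and 0.46), and Ifit2 lies left of 0; Mx1 and Nlrc5 were not tested.

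Between the tissues at E14.5, the called interferon genes among those described here were mostly lower in the bladder than in the urethra. Of 30 genes tested 2 were higher in the bladder and 9 lower, beside 44.0% of all 16697 genes called (23.1% higher and 20.9% lower). Scaled on the pan-epithelial genes, of which 5 of 7 were themselves higher in the bladder, 0 were higher and 18 lower. On that scale 540 of all 16697 genes were higher and 11293 lower. In the reported fit the median of the 30 was -0.25, against -0.03 over all genes. Without replicate 1 of either tissue 4 were higher and 7 lower. Other interferon-stimulated genes, outside those described here, were not mostly lower in the bladder at E14.5. Of 38 tested in the reported fit, 7 were higher in the bladder and 4 lower, with a median of -0.02.

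Tnfsf10 had the largest difference. It was at 0.0627, 0.173, 0.542 and 0.206 CPM in bladder and at 6.02, 4.84, 1.69 and 3.77 in urethra, a log2 difference of -4.12 ± 0.64 (bladder over urethra, adjusted p = 0.00167). Ifitm3 was at 4.09 to 11 CPM in bladder and at 108, 74.8, 46.5 and 74.2 in urethra (-3.34 ± 0.35, adjusted p = 0.000463), and Ifitm1 at 0.749 to 2.53 and 12, 12.4, 7.63 and 11.7 (-2.71 ± 0.39). The tissues did not overlap for any of these 3 genes, which held, with the bladder lower, for 17.4% of all genes.

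Usp18 was also lower in the bladder, with 4.04, 2.13, 1.08 and 1.79 CPM against 13.9, 7.05, 4.34 and 6.99 (-1.87 ± 0.47, adjusted p = 0.0126). Ddx58 differed by -0.97, Ly6e by -0.75, Ifitm2 by -0.53, Rsad2 by -1.25 and Irf9 by -0.56. The Irf9 call was lost without bladder replicate 1, 3 or 4 or urethral replicate 2 or 4 (-0.58 to -0.38, adjusted p up to 0.111), and the Rsad2 call without bladder replicate 1 or 4 or urethral replicate 2 (-1.24 to -1.07, adjusted p up to 0.0636). The 2 genes higher in the bladder were Tap1, with 37.9, 45.6, 45.6 and 37.05 CPM against 28.6, 18.1, 10.6 and 15.5 (1.16 ± 0.27, adjusted p = 0.00907), and Stat2, with 32.7, 37.01, 28 and 38.5 against 22.9, 24.02, 25.7 and 25.7 (0.43 ± 0.10, adjusted p = 0.0119). Stat2 was not called when bladder replicate 2 was left out (0.37, adjusted p = 0.0611). On the pan-epithelial scale Stat2 had the opposite sign, -0.56, and Tap1 was not called. Mesenchyme markers were lower in the bladder for 6 of 15 genes at this stage, and 0 were higher.

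At E18.5 the balance was the other way. Of 36 genes tested 17 were higher in the bladder and 4 lower, beside 37.9% of all 17513 genes called (19.3% higher and 18.6% lower), and the median was 0.61 against -0.03 over all genes. In the class I pathway 8 of 10 genes were higher in the bladder and 0 lower. The 4 lower genes, Tnfsf10, Ly6e, Usp18 and Ifitm3, were those also lower at E14.5, and Rsad2 and Ifitm1 were called lower in the bladder at E14.5 and higher at E18.5.

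Tnfsf10 was at 2.44, 2.21 and 2.31 CPM in bladder and 32.03, 38.3 and 35.6 in urethra at E18.5 (-3.95 ± 0.16, adjusted p = 6.17e-06). Ly6e was at 102, 107 and 86.1 CPM and 240.3, 239 and 257 (-1.34 ± 0.11, adjusted p = 8.25e-05). Usp18 differed by -1.17 ± 0.18 and Ifitm3 by -0.54 ± 0.15, the last a call lost on the pan-epithelial scale and without replicate 2 or 3 of either tissue (-0.53 to -0.38, adjusted p up to 0.0701). For all 4 genes the tissues did not overlap, which held, with the bladder lower, for 25.5% of all genes.

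Isg15 led the genes higher in the bladder, with 5.71, 4.72 and 4.37 CPM against 0.692, 1.13 and 0.900 (2.41 ± 0.30, adjusted p = 0.000542). Bst2 was at 29.1, 25.8 and 23.7 CPM in bladder and 5.45, 5.51 and 6.41 in urethra (2.16 ± 0.16, adjusted p = 4.87e-05). B2m was at 123, 117 and 106 CPM and 56.1, 48.4 and 62.5 (1.03 ± 0.12, adjusted p = 0.000446). The tissues did not overlap in any of the 3, which held, with the bladder higher, for 25.7% of all genes.

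Nlrc5, the regulator that switches on class I promoters, was low in both tissues, with 0.690, 1.09 and 0.442 CPM in bladder and 0.0864, 0.237 and 0.225 in urethra (1.93 ± 0.55, adjusted p = 0.0239). H2-D1 was higher in the bladder by 0.89, Psmb9 by 1.23, Psmb8 by 0.73, Psmb10 by 0.62, Tap2 by 0.61 and Tap1 by 0.47. H2-K1 and Tapbp were not called (0.62 ± 0.26 and 0.02 ± 0.13). Of the remaining interferon genes, Ifi27, Rtp4, Xaf1, Ifitm1, Oasl2, Rsad2 and Ifi35 were higher in the bladder, by 0.58 for Ifi35 to 1.57 for Ifi27. With 3 libraries a tissue, 5 of these calls rested on single libraries: Ifi35 lost its call without any 1 library but urethral replicate 2 (0.49 to 0.64, adjusted p up to 0.116) and Rsad2 without any but bladder replicate 3 (0.80 to 1.16, up to 0.135). Tap1 lost it without replicate 2 or 3 of bladder or 1 or 2 of urethra (0.36 to 0.49, up to 0.0834), Nlrc5 without bladder replicate 1 or urethral replicate 1 or 3 (1.64 to 2.09, up to 0.0889), and Psmb10 without urethral replicate 1 or 3 (0.54 to 0.58, up to 0.0641).

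In the same libraries 12 of 14 leukocyte genes, 10 of 10 endothelial genes, 12 of 15 mesenchyme genes, 10 of 10 smooth muscle genes and 5 of 7 erythroid genes tested were higher in the bladder at E18.5, and 3 of 7 pan-epithelial genes were lower. Ptprc, the pan-leukocyte antigen CD45, was at 8.42, 5.92 and 6.04 CPM in bladder and 2.81, 2.19 and 2.39 in urethra. With the mesenchyme covariate, which required a fit to all 14 libraries, 4 genes stayed higher (B2m, Bst2, Isg15 and Rsad2) and 2 lower (Ly6e and Tnfsf10). The fit to all 14 libraries without it called 8 higher and 2 lower. Of all 18286 genes the first fit called 4015 and the second 6281. The called shares of the 34 genes tested were under these shares of all genes in both fits. With the covariate Ifi27 was at 0.11, Rtp4 at 0.19, Ifitm1 at 0.56 and Usp18 at -0.59, Oasl2 had the opposite sign (-0.56), and none of these 5 was called. Psmb8, Tap2, Tap1 and Ifi35 were not called either, at larger values of 1.27, 1.17, 0.92 and 0.99. The part of leukocyte, endothelial and smooth muscle RNA was not tested.

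**Figure D4:**
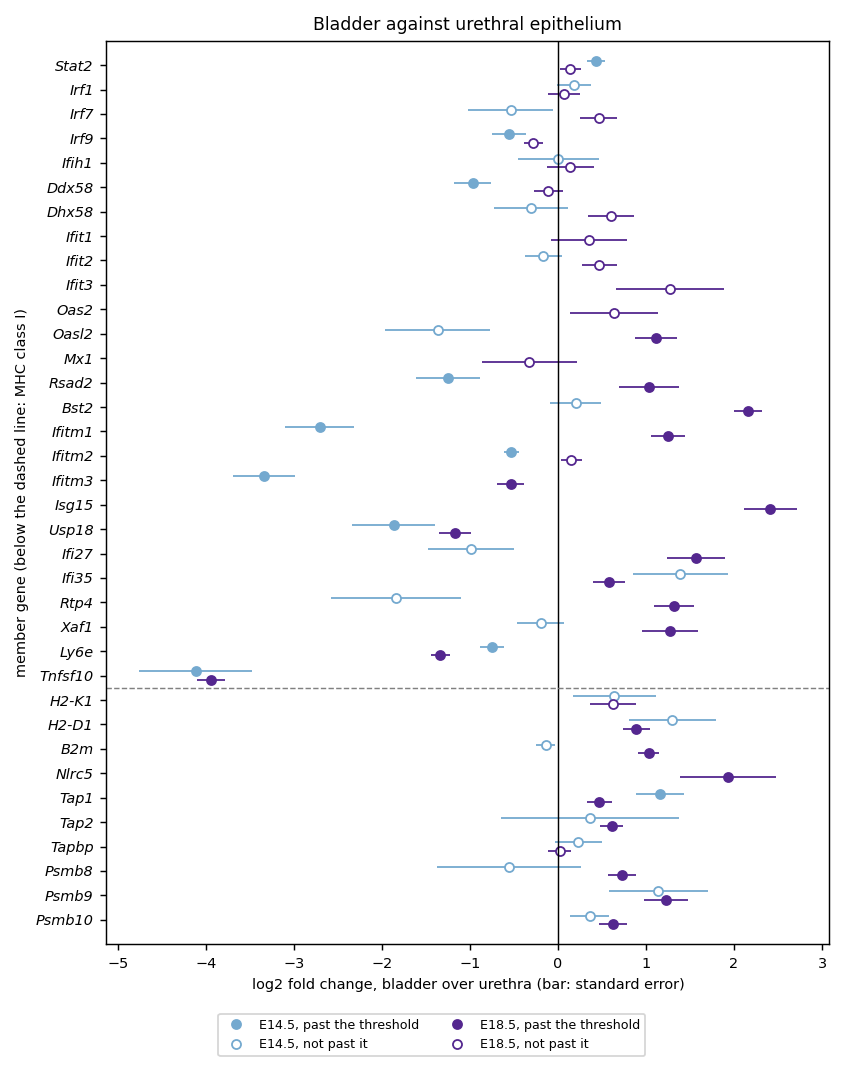
Log2 fold change of bladder over urethra for each gene at E14.5 (light blue) and E18.5 (purple), with bars for the standard error; filled points passed an adjusted p of 0.05 and open points did not. Tnfsf10 lies near -4 at both stages (-4.12 and -3.95), Ifitm1 crosses 0, from -2.71 at the earlier stage to 1.25 at the later, and most class I genes at E18.5 lie right of 0.

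At E14.5 replicate 1 of both tissues stood apart for many class I genes. It was the highest of its group in both tissues for 6 of the 10 class I genes (H2-K1, H2-D1, Tap2, Tapbp, Psmb8 and Psmb9) and for 8 of the 26 interferon genes, and this held for 13.3% of 17455 genes with at least 140 counts in total. These counts used levels scaled to plain library totals. On the TMM-scaled CPM used elsewhere, Ddx58 was not the highest in bladder replicate 1 (23.8 CPM, against up to 24.2). For Tap2 replicate 1 had 9.78 CPM in bladder and 6.72 in urethra, against 0.542 to 1.73 and 0.843 to 1.34 in the other 3 libraries of each tissue. For Ifi35, an interferon gene, it had 19.6 and 6.99 CPM against 4.56 to 8.06 and 2.29 to 2.54. B2m and Tap1 were not high there in bladder, where replicate 1 had 36.9 CPM of B2m and 37.9 of Tap1 among libraries of 34.5 to 42.5 and 37.05 to 45.6. In urethra it was the highest for Tap1, with 28.6 CPM against 10.6 to 18.1.

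Leaving out replicate 1 of both tissues did not lower the counts of rising genes in the bladder (31 higher and 1 lower), and gave 23 higher and 1 lower in the urethra. It raised the stage change of Psmb8 in the urethra to 3.75, and that of Tap2 to 4.83 in bladder and 4.18 in urethra, both above Tnfsf10 there (3.35). H2-D1 was then higher in E14.5 bladder than urethra by 1.40 (adjusted p = 0.0014), and Ifi35 by 1.33 (adjusted p = 0.00569), against 1.30 and 1.39, not called, with all 8 libraries.

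**Figure D5:**
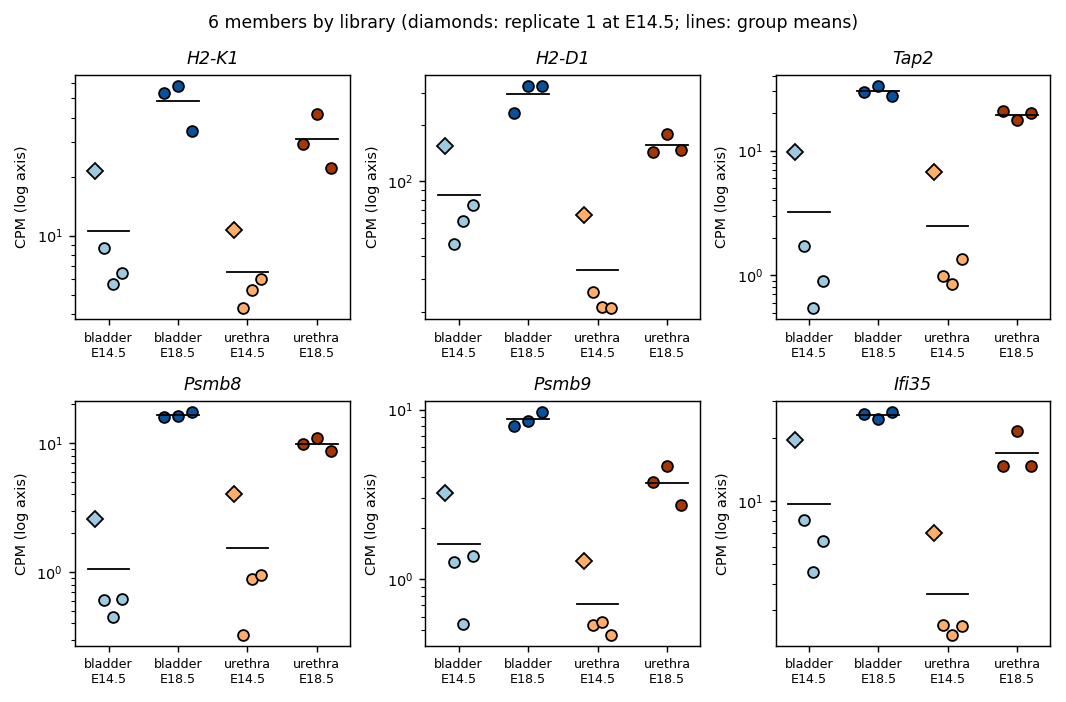
CPM (log axis) of 6 genes in each library by tissue and stage; points are libraries, diamonds are replicate 1 at E14.5 and lines are group means. In each panel the diamond is the highest E14.5 point of its tissue, for Tap2 at 9.78 CPM in bladder and 6.72 in urethra, and still below every E18.5 point of that tissue.

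The immunoproteasome replaces the catalytic subunits of the standard proteasome, Psmb5, Psmb6 and Psmb7, by Psmb8, Psmb9 and Psmb10. Per kilobase, Psmb8 was at 0.193 to 1.21% of the level of Psmb5 in E14.5 bladder and at 6.77 to 8.0% in E18.5 bladder. In urethra it was at 0.179 to 2.03% and then at 4.96 to 5.84%. Psmb9 reached 2.50 to 2.98% of Psmb6 in E18.5 bladder and 1.12 to 1.56% in E18.5 urethra. Psmb10 stood closest to its counterpart, at 6.91 to 15.4% of Psmb7 in E14.5 bladder and 22.8 to 28.5% at E18.5. Of the 14 standard subunits listed, 1 rose and 1 fell in the bladder between stages, and 3 rose and 0 fell on the pan-epithelial scale. On that scale 6001 of all 18286 genes rose in the bladder and 303 fell.

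Interferon itself was barely found. Of 13 interferon genes listed, 10 had 0 counts in all 14 libraries, among them Ifnb1, Ifng, Ifnl2 and Ifnl3, and Ifnk and Ifnz had 2 and 27 counts in total. Ifne, an interferon made by the epithelium of the reproductive tract, was the exception, with 2.29, 3.94 and 1.12 CPM in the 3 urethral libraries at E18.5. It had 0 counts in the 4 urethral libraries at E14.5 and 0 to 0.276 CPM in E18.5 bladder. Against a floor of 3 counts over the 4 libraries, the urethral level was at least 79.7-fold higher at E18.5 (adjusted p = 0.000825), and it was lower in bladder than in urethra by -4.06 ± 0.79 on the log2 scale (adjusted p = 0.00438).

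Of the 9 receptor and kinase genes, 3 rose and 1 fell in the bladder between stages, a share near the 40.3% of all genes called, and 0 were called with the mesenchyme covariate in edgeR. Ifnar2, a chain of the type I receptor, was at 10.9 to 14.1 CPM and then at 26.2 to 33.96 (1.34 ± 0.14), and Tyk2 was the 1 that fell (-0.57). In the urethra 4 rose and 1 fell, beside 33.0% of all genes called. Ifngr2, of the interferon gamma receptor, was at 0.87 ± 0.11 there. On the pan-epithelial scale 0 rose and 3 fell in the urethra, where 1055 of all 18286 genes rose and 8921 fell. Of the 9 feedback inhibitors tested, Socs1 and Socs3 were the 2 that rose in the bladder, by 1.14 and 1.31, and 3 fell (Pias1, Pias4 and Ptpn2). On the pan-epithelial scale 3 of the 9 rose and 0 fell in the bladder, where 6001 of all 18286 genes rose and 303 fell. In the reported fit 5 of these 9 were called, beside 40.3% of all genes. With the covariate 0 were called, in a fit that called 593 of all 18286 genes.

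Interferon-stimulated genes outside the 36 also rose between stages more often than they fell. Of 51 tested, 38 rose and 1 (Daxx) fell in the bladder, with Lgals9, Sp100 and Gbp7 at 4.96, 4.67 and 4.48. Of all genes 19.9% were called higher there and 20.4% lower. With the mesenchyme covariate 7 rose and 0 fell, in a fit that called 593 of all 18286 genes. In the urethra 32 rose and 2 fell, among them Ifi203, Ifi204 and Slfn2 at 4.86, 3.86 and 3.66, which have close copies, and, falling, Cmpk2 at -1.11. Of all genes 17.3% were called higher in the urethra and 15.7% lower. On the pan-epithelial scale 12 of the 51 rose and 5 fell, where 1055 of all 18286 genes rose and 8921 fell. Of 16 other class I and class I-like genes, 11 rose in the bladder, among them Fcgrt, the class I-like receptor that carries antibodies across epithelia (3.60 ± 0.40), and Mr1, which presents vitamin B metabolites (2.38 ± 0.28). With the mesenchyme covariate 1 rose, in the fit that called 593 of all 18286 genes. In the urethra 4 rose and 1 fell, a share near the 33.0% of all genes called there. Among those that rose was H2-T23, the mouse counterpart of HLA-E, at 2.28 ± 0.63. On the pan-epithelial scale 1 of the 16 rose and 1 fell, beside 1055 of all 18286 genes that rose and 8921 that fell. Of the class II genes, H2-Ab1 was lower in bladder than in urethra at both stages, by -4.93 ± 1.01 (adjusted p = 0.00547) and -2.40 ± 0.43 (adjusted p = 0.00305), with 0.0940, 0, 0.226 and 0.0687 CPM in E14.5 bladder against 6.28, 1.07, 0.602 and 3.18 in E14.5 urethra. Of the 5 genes of that list tested at E18.5, 1 (Cd74) was higher in the bladder. Between stages Cd74 and H2-Eb1 rose in the bladder and H2-Eb1 in the urethra, and 0 fell in either tissue. Of the 5 class II genes tested, 2 were thus called in the bladder and 1 in the urethra, beside 40.3% and 33.0% of all genes. Between tissues 1 of 5 was called at E14.5 and 2 of 5 at E18.5, beside 44.0% and 37.9%. These shares were near or under those of all genes.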

How the data were processed

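RNA from 14 libraries of bladder and urethral epithelium was sequenced from poly(A) RNA. The authors deposited raw counts per gene symbol in 2 tables, 1 per stage; per the submitters' processing notes, reads were handled with bcl2fastq, aligned with HISAT2 2.2.1 to GRCm38 and processed with SAMtools 1.9. The sources used here do not give the counting program, strand setting or annotation. Even values made up 66.2 to 70.5% of counts from 1 to 8, as when both mates of a pair are counted. The counts may thus be reads and not fragments, which was not tested.

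Counts were tested with edgeR 4.0.16 (R 4.3.3; TMM scaling, filterByExpr, quasi-likelihood F test, Benjamini-Hochberg adjustment over all genes, threshold 0.05). Tissues were compared within each stage; stages, and their difference between tissues, in 1 fit of all 14 libraries. Standard errors (SE) were taken from the fold change and the F value. Levels are CPM with TMM-scaled library sizes. The p-values measure the spread between pools of embryos, and libraries of both tissues share litters. The series' design text names 4 litters for the earlier stage and 3 for the later, while the extraction protocol names 3 for each sample type. The scripts were tested on simulated data.

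The 36 genes and all other lists were chosen with earlier results of these data known. All 36 are accounted for. Of each other list, the genes open to naming were the called genes with the 3 smallest p-values, the strongest against the majority, and all where 5 or fewer were called. Only some of these are named here, and some lists are left out. A few genes were named for their known role. Alternatives were DESeq2 1.42.0, limma 3.58.1 (voom), DESeq2 size factors, other filters, a fold threshold, scaling on 7 pan-epithelial genes, a mesenchyme covariate, a replicate block, other sample sets and leaving out each library; leaving out replicate 1 of both E14.5 tissues was added after seeing the data. Figures used matplotlib.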

Additional observations from a re-analysis of the deposited data

Results flagged for a closer look

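In the E14.5 groups of 4 libraries, 13 of the 72 gene and group pairs had a library whose distance from the nearest other library was an unusually large part of the group's range by Dixon's test; chance gives about 1 in 20. In 10 of the 13 that library was replicate 1.

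In bladder, replicate 1 was the highest for Tap2 with 9.781 CPM (others 0.542 to 1.73) and Psmb8 with 2.571 CPM (0.452 to 0.619), and the lowest for Ifit2 with 15.27 CPM (26.0 to 27.8).
In urethra, replicate 1 was the highest for Ifih1 with 4.922 CPM (others 1.57 to 2.09), Ifi35 with 6.988 (2.29 to 2.54), H2-D1 with 66.01 (20.9 to 25.5), Tap2 with 6.724 (0.843 to 1.34), Psmb8 with 3.999 (0.328 to 0.942) and Psmb9 with 1.274 (0.471 to 0.562). It was the lowest for Oas2 with 0.08789 CPM (0.157 to 0.164).
Replicate 3 of the urethra was the highest for Oasl2 with 2.289 CPM (0.967 to 1.18) and the lowest for Ifitm1 with 7.631 CPM (11.7 to 12.4) and Psmb10 with 6.627 CPM (7.50 to 7.58).

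The stage change differed between bladder and urethra, by the interaction term in edgeR, for 13 genes. The bladder change minus the urethra change was 4.00 for Ifitm1, 3.20 for Rtp4, 2.95 for Isg15, 2.83 for Ifitm3, 2.60 for Ifi27, 2.52 for Oasl2, 2.30 for Rsad2, 2.26 for Ifit1, 1.98 for Bst2, 1.49 for Xaf1, 1.20 for B2m, 0.70 for Ifitm2 and -0.56 for Ly6e.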

How the results depend on the processing

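Under the alternatives without a change of scaling, covariate, fold threshold or sample set (DESeq2, limma voom, DESeq2 size factors, other filters), each total of called genes stayed within 1.5 times its value, while the genes higher in the bladder at E14.5, 2 in the reported fit, were 4 with DESeq2 and 3 with limma voom. Leaving out single libraries gave 9 to 14 called genes between tissues at E14.5 (11 with all libraries), 16 to 19 at E18.5 (21), 29 to 32 between stages in bladder (31), 23 to 26 in urethra (26) and 10 to 14 for the interaction (13). A log2 fold change of at least 1 left 6 at E14.5. The fit of all 14 libraries left 10 at E18.5, where it called 6281 of all 18286 genes. The mesenchyme covariate left 6 at E18.5, 11 in bladder between stages and 0 for the interaction, and gave Oasl2 -0.56 at E18.5 and, for the interaction, -0.41 for Oasl2 and -0.11 for Ifi27. With it 4015 of all 18286 genes were called at E18.5, 593 in bladder between stages and 61 for the interaction. Pan-epithelial scaling gave 18 at E14.5 (Stat2 -0.56, Tapbp -0.62), 26 for the interaction (Irf1 1.24, Ly6e 0.77, Stat2 1.09, Tapbp 1.05), and in urethra between stages B2m -0.28 and Ifitm2 -0.65. The pan-epithelial scale shifts all genes by its own construction. That scale called 11833 of all 16697 genes at E14.5 and 12787 of all 18286 for the interaction. The cause of the other changes was not tested. With the replicate block 14 genes were called at E14.5 (5 higher, 9 lower), 19 at E18.5 (15 and 4) and 15 for the interaction (15 and 0); Irf9 at E14.5, Ifi35, Nlrc5 and Rsad2 at E18.5 and Ly6e for the interaction were then not called (adjusted p = 0.0526 to 0.0594), and H2-D1, Ifi35, Oasl2 and Tapbp at E14.5, H2-K1 at E18.5 and Ddx58, Irf7 and Usp18 for the interaction were; same-numbered libraries of both tissues correlated by -0.10 to 0.39 at E14.5 and -0.19 to 0.14 at E18.5, 2 of 4 and 1 of 3 bladder libraries correlated best with their own number, so the numbers were not taken to pair samples. Genes under 1 CPM rest on few reads, and their fold changes depend on the prior count.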
